A study of Danio rerio and Oryzias latipes with 22 samples.

Results

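The ventricle of the Japanese medaka (*Oryzias latipes*) was compared between 14 and 3 days post-injury (d.p.i.) to describe which changes present at the early stage were no longer present at the later one, and which appeared by then. The members were chosen by their labels as the 3 medaka samples at 3 d.p.i. and the 2 at 14 d.p.i., 5 of the 22 samples of a study of zebrafish and medaka hearts, and 4 uninjured medaka samples served as the reference level. All fish were of the wild-type CAB strain and were 6 to 18 months old. Injured fish had a liquid nitrogen-cooled probe held to the apex of the ventricle (cryoinjury), and uninjured fish had not. Ventricles were cut free of atrium and outflow tract, squeezed to remove blood and digested, and the cells were profiled by single-cell RNA sequencing on the 10x Genomics Chromium system, which counts each captured mRNA by a unique molecular identifier (UMI). No source used here says whether a sample was 1 fish or a pool, so the p-values measure the spread between samples.

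Cryoinjury kills a patch of myocardium. In zebrafish hearts the dead tissue first draws in granulocytes and macrophages. For medaka the study, by imaging, reports few signs that macrophages were recruited to the wound. The wound fills with blood and fibrin, while endothelial and epicardial cells around it divide, migrate and secrete matrix. Later, lymphocytes and matrix-forming mesenchymal cells are prominent in a healing wound. Medaka, in contrast to zebrafish, are known to keep a scar. Cells that divide or secrete heavily carry more RNA for the cell division machinery, for the chaperones and transport coats of the endoplasmic reticulum, and for the proteasome, which degrades unneeded and misfolded proteins.

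Barcodes with at least 200 genes and at most 40% mitochondrial UMIs were kept, which left 2751, 3250 and 3091 cells at 3 d.p.i. and 3320 and 4855 at 14 d.p.i. The samples held 14132308 to 16550716 UMIs at 3 d.p.i. and 19275818 and 47795839 at 14 d.p.i., so the values of 14 d.p.i. replicate 2 rest on the largest count. Stage moved with depth and RNA content, since the median cell had 1832 to 2154 UMIs at 3 d.p.i. and 2759 and 5821 at 14 d.p.i., and mitochondrial RNA made up 3.94% to 7.77% of UMIs at 3 d.p.i. and 10.8% and 17.9% at 14 d.p.i. The part of depth and of mitochondrial share in the results below was not tested beyond the alternatives named beside them. The libraries were made of separate cells, as no pair of medaka samples shared more than 8 barcodes. Clustering of the 31729 medaka cells gave 30 clusters, of which 6 received no name because too few of their markers were found or their markers scored too low. The uninjured libraries stood apart from one another within cell classes, with separate endothelial and cardiomyocyte clusters made up mostly of uninjured replicates 1 and 2 or of replicate 3. The largest endothelial cluster at 14 d.p.i. (433 and 883 cells) held 57, 91, 229 and 1527 cells of uninjured replicates 1 to 4. The largest cardiomyocyte cluster there (273 and 1155 cells) held 3, 18, 71 and 498. Within these classes the 4 uninjured samples were thus not a uniform reference.

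The first comparison asked how the makeup of the ventricle differed between the stages. At 3 d.p.i. the suspension was dominated by erythroid-like cells (red blood cells), with granulocyte-like and thrombocyte-like cells, and held almost no T lymphocytes or epicardial cells and few cardiomyocytes. By 14 d.p.i. T lymphocyte-like and epicardial-like cells stood within the range of the uninjured samples, and cardiomyocyte-like cells did in 1 sample and stood above it in the other. Erythroid-like cells made up 57.9%, 80.1% and 68.1% of cells at 3 d.p.i. and 24.2% and 19.3% at 14 d.p.i., against 2.91% to 41.2% in uninjured ventricles. Cardiomyocyte-like cells averaged 2.46% ± 1.57 (SD, n = 3) at 3 d.p.i. and 21.1% ± 12.98 (SD, n = 2) at 14 d.p.i., where the samples had 11.9% and 30.3%, against 10.6% to 19.7% in uninjured ventricles. The 19.7% was that of uninjured replicate 3, where 526 of 689 such cells lay in a cluster led by *myh6* and *kcnj5*. That cluster held 0 cells in each 3 d.p.i. sample and 0 and 1 at 14 d.p.i., and the origin of its cells was not tested. T lymphocyte-like cells averaged 0.277% ± 0.198 at 3 d.p.i. and 8.53% ± 2.89 by 14 d.p.i. This class joined 2 clusters, 1 with *CD3D*, *ccr7* and *zap70* among its 10 leading genes and 1 led by *nitr20* and *nitr17*. The second had 7 T lymphocyte markers higher than other cells but none among its 10 leading genes. It supplied 225 of 351 and 69 of 315 cells of the class at 14 d.p.i., so how far the class is T lymphocytes is uncertain. Epicardial-like cells, the outer layer of the heart, averaged 0.0431% ± 0.0747 and 1.79% ± 0.442. In each of these 4 classes, and in B lymphocyte-like cells (0.583% ± 0.583 and 4.61% ± 4.77), the stages did not overlap, and the exact two-sided permutation p was 0.1, the smallest that 3 samples against 2 allow, or 0.18 after Benjamini-Hochberg adjustment over the 9 classes compared. No share could therefore pass a threshold of 0.05.

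Granulocyte-like cells had 5.56%, 2.40% and 0.68% at 3 d.p.i. and 0.0904% and 0.144% at 14 d.p.i. Thrombocyte-like cells, the nucleated counterpart of platelets in fish, averaged 5.60% ± 2.92 and 1.54% ± 0.854. Endothelial-like cells averaged 8.36% ± 4.30 and 19.5% ± 1.47. The stages did not overlap in any of these 3 classes either, and the exact permutation p of the difference of means was 0.2 for each. Macrophage-like cells averaged 9.41% ± 2.73 and 11.8% ± 3.77, with an exact permutation p of 0.4. The values of 3 classes rested on the erythroid-like cells in the denominator. Among the other cells, macrophage-like cells had a mean share of 30.7% ± 3.28 at 3 d.p.i. and 15.2% ± 5.48 by 14 d.p.i., and endothelial-like cells had 25.8% ± 4.51 and 24.9% ± 0.792. B lymphocyte-like cells overlapped there, with 0%, 2.94% and 3.65% and then 10.5% and 1.53% (exact permutation p of 0.4), and their difference over all cells, 4.03 points, was 0.653 without 14 d.p.i. replicate 1. Fewer cells of a type and less RNA per cell cannot be told apart in counts summed over a sample, and blood left after squeezing and the loss of cells in digestion cannot be told apart from the stage.

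**Figure D1:**
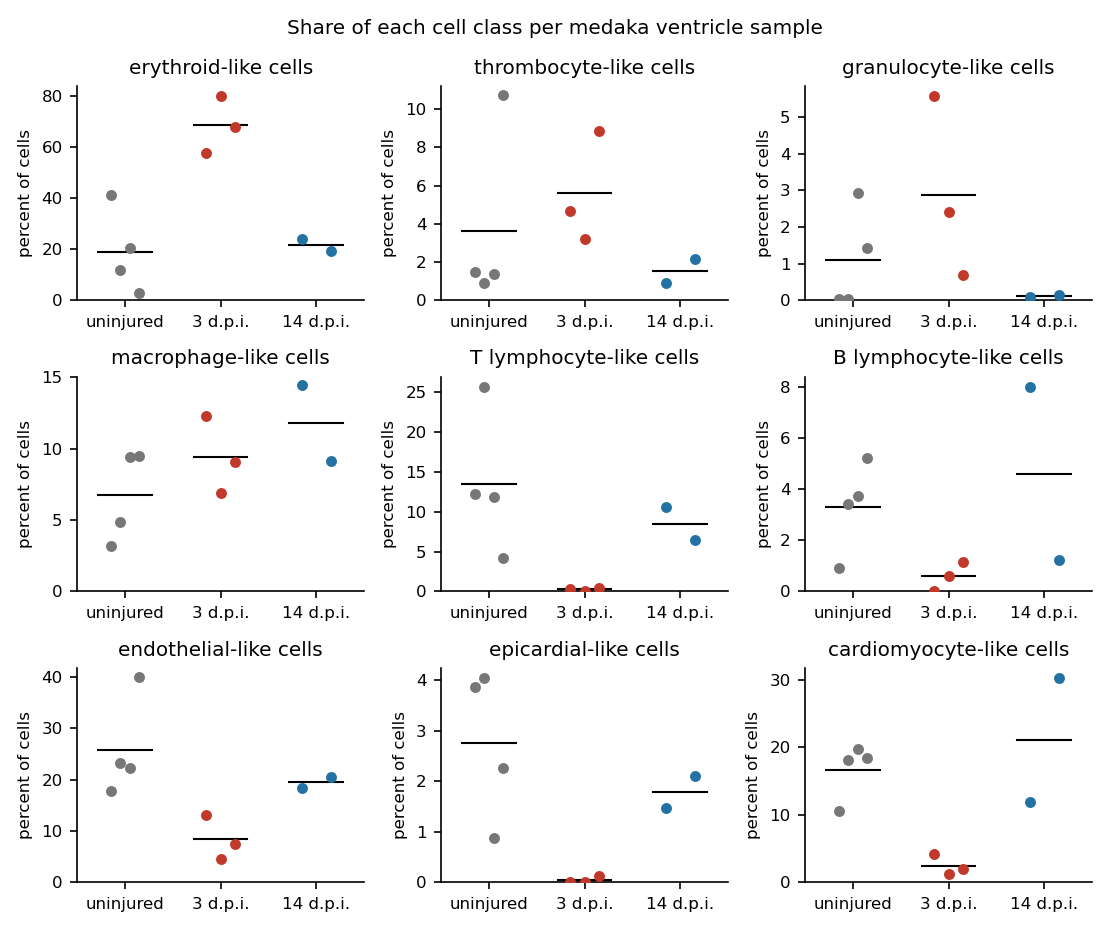
Percent of cells in each of 9 cell classes (vertical axes, each with its own scale from 0) in uninjured, 3 d.p.i. and 14 d.p.i. medaka ventricles, 1 point per sample with a black line at the group mean. Erythroid-like cells were between 57.9% and 80.1% at 3 d.p.i. and at 24.2% and 19.3% at 14 d.p.i., while T lymphocyte-like and epicardial-like cells were near 0 in every 3 d.p.i. sample.

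Summed over all kept cells, 1146 of 15478 genes tested rose from 3 to 14 d.p.i. (7.4%) and 687 fell (4.44%), by edgeR's quasi-likelihood test at an adjusted p under 0.05. The median log2 fold change over all genes tested was 0.00126. Among the 1146 genes that rose were the contractile genes of the myocardium, T lymphocyte genes, and genes of epicardial and matrix-forming cells, and among the 687 that fell were genes of the proteasome, of the endoplasmic reticulum and its transport coats, of cell division and of the innate blood cells. The counts depended on the scaling and on single libraries. With scaling by library size alone the counts were 626 higher and 85 lower, so that the fraction of calls that were higher changed from 62.5% to 88%. No gene passed without 3 d.p.i. replicate 2, and 2 genes rose and 0 fell without 14 d.p.i. replicate 2, when 1973 and 1604 genes were higher and 1754 and 955 were lower at an unadjusted p under 0.05. In that last fit the lone 14 d.p.i. sample was assumed to vary like the other groups.

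The uninjured samples lay nearer to 14 d.p.i. than to 3 d.p.i. in 1062 of the 1146 genes that rose and in 650 of the 687 that fell. The genes were picked for their distance from the 3 d.p.i. samples, and the uninjured level lay nearer to 14 d.p.i. in 71.8% of all genes tested, so these counts are a description. For 723 of the genes that rose and 384 of those that fell, the mean at 14 d.p.i. was inside the range of the 4 uninjured samples. The same share over all genes tested was not computed, so these counts too are a description.

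The genes that fell with the smallest adjusted p included several that handle proteins in the secretory pathway. *sec23b*, a coat protein of the vesicles that leave the endoplasmic reticulum, was at 46.5, 48.6 and 40.3 CPM (the TMM-scaled share of a library's counts) at 3 d.p.i. and at 16.6 and 12.5 at 14 d.p.i. *lman1*, a cargo receptor that carries glycoproteins such as clotting factors out of the endoplasmic reticulum, was at 76.8, 78.7 and 94.2 CPM and then at 31.2 and 21. The stages did not overlap for either gene, and uninjured samples had 19.7 to 26.6 CPM of *sec23b* and 18.4 to 24.8 CPM of *lman1*. The log2 fold changes from 3 to 14 d.p.i. were -1.63 ± 0.22 (SE) and -1.67 ± 0.25, with an adjusted p of 0.0141 for both. *mogs*, which trims the first glucose from new N-glycans, fell by 1.33 ± 0.20 on the log2 scale, *sdf2l1*, a partner of the chaperone BiP, by 1.44 ± 0.21, and *engase*, a cytosolic enzyme that removes N-glycans from misfolded proteins, by 2.05 ± 0.30. *manf*, a secreted protein made under endoplasmic reticulum stress, was at 126, 130.1 and 136 CPM at 3 d.p.i., at 50.3 and 42.3 by 14 d.p.i. and at 35.8 to 60.2 in uninjured ventricles, a change of -1.49 ± 0.25. Among 37 heat shock and endoplasmic reticulum chaperones tested, 6 fell and 0 rose, with a median log2 fold change of -0.62. The others that fell were *hyou1*, *hspd1*, *hspa4b* and *pdia3*. The summed level of the list was 5847, 10740 and 8445 CPM and then 8790 and 11380, higher on average at the later stage, so that it and the median differed in sign. With scaling by library size alone none of the 37 passed and the median was -0.59.

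Proteasome subunits formed the second group that fell. Of 43 tested, 18 fell and 2 rose, with a median log2 fold change of -1.13. *psmd2*, a scaffold of the regulatory particle, was at 136, 154 and 119 CPM at 3 d.p.i. and at 53.4 and 34.5 at 14 d.p.i., when uninjured ventricles had 52.9 to 60.2, and its log2 fold change was -1.64 ± 0.25. The stages did not overlap, and 1 of the 14 d.p.i. values lay below the uninjured range. *psmd11b* changed by -1.49 ± 0.22, *psmb1* by -1.497 ± 0.27 and *psmd3* by -1.60 ± 0.32. Both subunits that rose, *psmb8* (1.81 ± 0.37) and *psmb13a* (1.47 ± 0.29), belong to the immunoproteasome, the form that makes peptides for display on MHC class I. *psmb8* was at 18.5, 23.7 and 25.1 CPM at 3 d.p.i. and at 76.9 and 80.4 at 14 d.p.i. Library size scaling left 5 subunits lower and the same number higher, with a median of -1.08. Other genes among the 15 with the smallest adjusted p that fell were *snrpa*, a protein of the U1 splicing particle (-1.60 ± 0.20), *actr1*, a part of the dynein partner dynactin (-1.36 ± 0.19), the peptidase *blmh* (-1.86 ± 0.26), and *bzw1a* (-1.42 ± 0.20), *capslb* (-1.85 ± 0.26), *CCDC112* (-2.03 ± 0.29) and *gpkow* (-1.25 ± 0.18).

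Some genes of cell division fell as well. Of 71 tested, 21 fell and 0 rose, and 69 of the 71 had a log2 fold change below 0, with a median of -1.20. *PLK1*, a kinase that drives entry into mitosis, was at 28.7, 22.9 and 38.3 CPM at 3 d.p.i. and at 9.03 and 6.11 at 14 d.p.i., without overlap, against 3.3 to 9.26 in uninjured ventricles. Its log2 fold change was -1.99 ± 0.42 (adjusted p = 0.023). *ccnb1*, the cyclin that partners the mitotic kinase, changed by -2.07 ± 0.49, *prc1a*, which bundles spindle microtubules, by -2.04 ± 0.47 and *tpx2*, a spindle assembly factor, by -1.91 ± 0.51. Library size scaling left none of the 71 past the threshold, with a median of -1.14, and 5 fell at no more than 15% mitochondrial UMIs per cell. When erythroid, thrombocyte and unnamed cells were left out before summing, 42 of 72 fell and the median was -1.52.

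Some genes of matrix turnover, 2 annexins and 8 genes of the proton pump fell. *adam8a*, a membrane protease of leukocytes, changed by -2.49 ± 0.41, *mmp14a*, a collagenase at the cell surface, by -1.39 ± 0.31, and *loxl2a*, a collagen crosslinking enzyme, by -2.11 ± 0.57. *anxa2a*, an annexin that gathers plasminogen at the cell surface, was at 457, 596 and 655 CPM at 3 d.p.i., 198 and 133 by 14 d.p.i. and 27.4 to 78.4 in uninjured ventricles, without overlap between the stages. It and *anxa13* were the 2 of 19 annexins, S100 proteins and galectins tested that fell. Of 46 lysosomal proteases and proton pump genes, 8 fell, all of them parts or partners of the pump that acidifies lysosomes, among them *atp6ap1b* (-1.81 ± 0.31) and *ATP6V1A* (-1.25 ± 0.24), and 1 rose, the cathepsin *CTSH* (1.16 ± 0.30). No proton pump gene passed with library size scaling.

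A few markers of granulocytes, thrombocytes and red cells fell, and most did not pass. *mpx* (ENSORLG00000009349), the myeloperoxidase of granulocytes, was at 209.7, 28.3 and 20.3 CPM at 3 d.p.i. and at 1.53 and 1.68 at 14 d.p.i., and its log2 fold change was -5.74 ± 1.43. It and *ncf4*, a subunit of the oxidase that makes superoxide, were the 2 of 19 granulocyte genes tested that fell, with a median of -1.27. Of 16 thrombocyte and coagulation genes 4 fell, among them the platelet glycoproteins *gp1bb* (-2.94 ± 0.62) and *gp9* (-2.43 ± 0.66), and the transcription factor *nfe2* (-2.52 ± 0.67), with a median of -1.68. The log2 fold change of *gp9* was 0.47 when erythroid, thrombocyte and unnamed cells were left out together. The part of each of these classes in that difference was not tested. Of 11 genes of red cells tested, the globin *hbba1* included, the band 3 anion exchanger *slc4a1a* (-2.18 ± 0.55) and the transferrin receptor *tfr1a* (-2.11 ± 0.52) fell.

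Globin features differed widely in their change. The 2 most abundant features annotated *gb* (ENSORLG00000026120 and ENSORLG00000003046) had 5275704 and 4969764 UMIs at 3 d.p.i., of 40159701 in all, and 1081597 and 711601 at 14 d.p.i., of 53086562. Per UMI these were 6.45 and 9.23 times as abundant at 3 d.p.i. Another globin, *Gb-alpha1*, had 26820, 12530 and 60899 UMIs at 3 d.p.i. and 1223 and 2892 at 14 d.p.i., a ratio of 32.2, and its log2 fold change in the fit was -5.01 ± 0.69. A further feature, *gb* ENSORLG00000005210, had 7705, 785 and 3807 UMIs at 3 d.p.i. and 5 and 3 at 14 d.p.i., with 7 to 64 in uninjured samples. The fourth *gb* feature, ENSORLG00000025271, had 11337, 1288 and 7564 UMIs at 3 d.p.i. and 0 and 1 at 14 d.p.i., a ratio of 26690 with an exact 95% binomial interval, for counting error only, from 4789 to 1054000. Each of these 5 features was thus more abundant in every 3 d.p.i. sample, by ratios that ranged widely. The sixth named globin, *hbba1*, went the other way, with 42, 38 and 45 UMIs at 3 d.p.i. and 76 and 162 at 14 d.p.i., a ratio of 0.694 (interval 0.555 to 0.866), and its log2 fold change of 0.50 ± 0.37 did not pass (adjusted p = 0.384). The annotation gives no globin class for these features, and reads of near-identical globin copies could be split between them, so their separate levels are uncertain. Named globin features made up 15.1%, 35.5% and 26.7% of all UMIs at 3 d.p.i. and 3.26% and 3.44% at 14 d.p.i. A small erythroid-like cluster, led by *gb* features and *Gb-alpha1*, held 85, 21 and 40 cells at 3 d.p.i. It held 0 and 0 at 14 d.p.i. and 0, 0, 1 and 7 in uninjured samples, and its part in the globin levels was not tested.

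**Figure D2:**
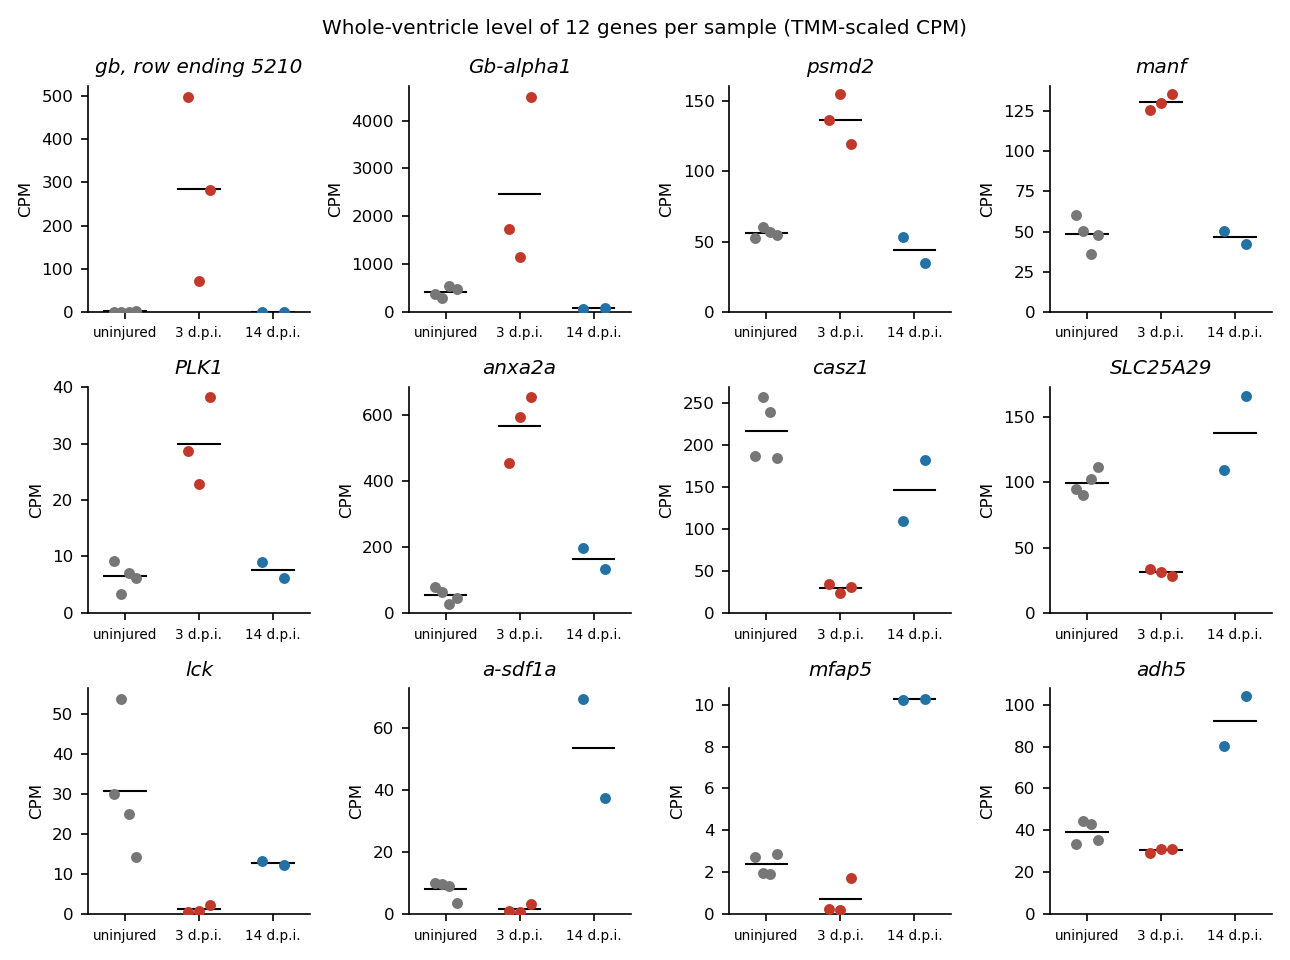
TMM-scaled CPM (vertical axes, each with its own scale) of 12 named genes in uninjured, 3 d.p.i. and 14 d.p.i. ventricles, 1 point per sample with a black line at the group mean. The globins, *psmd2*, *manf*, *PLK1* and *anxa2a* were higher in every 3 d.p.i. sample than in either 14 d.p.i. sample, *casz1*, *SLC25A29* and *lck* were lower, and *a-sdf1a*, *mfap5* and *adh5* were higher in both 14 d.p.i. samples than in any other.

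Genes of the working myocardium rose. Of 34 sarcomere genes tested 22 rose and 0 fell, with a median log2 fold change of 2.03. Of 15 genes of calcium handling, creatine and myocardial peptides 7 rose (median 1.61), and 7 of 14 cardiac transcription factors rose (median 1.27). Cardiomyocyte-like cells went from 2.46% to 21.1% of cells on average, and sarcomere RNA from 0.81% to 1.56% of UMIs at 3 d.p.i. to 4.13% and 7.75% at 14 d.p.i. These groups depended on cells rich in mitochondrial RNA, many of them the cardiomyocyte-like cells themselves. Of that class, a limit of 15% mitochondrial UMIs kept 18 of 116, 16 of 39 and 31 of 61 cells at 3 d.p.i. At 14 d.p.i. it kept 88 of 395 and 116 of 1469. With at most 15% mitochondrial UMIs per cell, 0 sarcomere genes and 0 genes of calcium handling, creatine and myocardial peptides passed. Their medians were 0.23 and 0.24, and 1 cardiac transcription factor passed. *tnni1b*, a troponin I, was at 27.0, 12.9 and 16.3 CPM at 3 d.p.i., 90.2 and 181 by 14 d.p.i. and 55.5 to 166 in uninjured ventricles. *ryr2b*, the calcium release channel of the sarcoplasmic reticulum, changed by 2.42 ± 0.43, and *casq2*, which stores calcium there, by 2.19 ± 0.40, but by -0.33 under the limit of 15%. *tbx5*, a T-box factor of the heart field, was at 14.2, 7.98 and 11.7 CPM at 3 d.p.i. and 54.9 and 140 at 14 d.p.i., a change of 3.11 ± 0.60.

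The 15 genes that rose with the smallest adjusted p held several that muscle is known to express. *casz1*, a zinc-finger factor needed for heart development, was at 34.1, 23.3 and 31.2 CPM at 3 d.p.i. and at 109.8 and 182 at 14 d.p.i., and uninjured samples had 184 to 257 CPM, above both stages. Its log2 fold change was 2.30 ± 0.30 (adjusted p = 0.0141). *SLC25A29*, a mitochondrial carrier of basic amino acids, was at 33.4, 31.5 and 28.4 CPM and then at 109.5 and 166, with 90.04 to 111 in uninjured samples. *smyd2b*, a lysine methyltransferase, changed by 2.96 ± 0.30, *synm*, the intermediate filament protein synemin, by 2.44 ± 0.31, *txlnbb*, a muscle taxilin, by 3.203 ± 0.42, and the glucose transporter *slc2a12* by 3.17 ± 0.37. The rest of the 15 were the arginine and lysine transporter *slc7a1a* (2.52 ± 0.33), the aminopeptidase *erap2* (2.31 ± 0.29), *elmo2*, an adaptor in engulfment and migration (1.91 ± 0.25), the ephrin receptor *EPHA6* (2.74 ± 0.36), the tetraspanin *tspan3b* (2.30 ± 0.31), *rai1* (2.84 ± 0.37) and *zgc:113531* (3.13 ± 0.42), besides *a-sdf1a* and *adh5*, which are described below. None of these 15 overlapped between the stages. That follows largely from their choice by the smallest adjusted p, so it is no added support. The same holds wherever genes past the threshold are said not to overlap.

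Genes of glycolysis changed in both directions, and few nuclear genes of the respiratory chain passed. Of 29 glycolysis genes 8 rose and 5 fell. *gapdh* was at 1545, 657 and 853 CPM at 3 d.p.i. and at 7397 and 26520 at 14 d.p.i., a log2 fold change of 4.06 ± 0.71, and *pkmb* (3.32 ± 0.58), *aldoa* (2.62 ± 0.53) and *ldhbb* (2.48 ± 0.55) rose with it. *pfkfb3*, which makes the strongest activator of phosphofructokinase (-1.65 ± 0.41), *pfkla* (-1.14 ± 0.31), *hk1* (-1.03 ± 0.28), *hk2* and *pgam1b* (-1.01 ± 0.23) fell. Of 88 nuclear genes of the respiratory chain 2 rose, *cox7a1* (3.33 ± 0.67) and *cox4i2* (2.08 ± 0.55), and 1 fell, the cytochrome c gene *cycsb* (-1.62 ± 0.32), with a median of 0.65. Over all genes tested 7.4% rose and 4.44% fell, so the counts of the respiratory chain were below those shares.

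Some T lymphocyte genes rose from near 0. Of 15 T and cytotoxic lymphocyte genes 7 rose and 0 fell, with a median log2 fold change of 2.39. *lck*, the kinase that starts signalling from the T cell receptor, was at 0.582, 0.642 and 2.29 CPM at 3 d.p.i., 13.1 and 12.3 by 14 d.p.i. and 14.2 to 53.8 in uninjured ventricles, so that both 14 d.p.i. samples were below all uninjured ones. Its log2 fold change was 3.42 ± 0.64. *zap70*, the next kinase in that pathway, changed by 3.78 ± 0.88, *CD3D*, a chain of the receptor complex, by 4.21 ± 1.11 and *itk* by 4.52 ± 1.18. The transcription factors *tbx21*, *rorc* and *gata3* were also among the 7. *tbx21* also served here as a marker of cytotoxic lymphocytes. *gata3* was among the 10 leading genes of an unnamed cluster led by *flt3*, and of neither T lymphocyte-like cluster. That unnamed cluster held 4, 6 and 16 cells at 3 d.p.i. and 64 and 125 at 14 d.p.i. Which cells carried these transcription factors was not tested. Of 11 B lymphocyte and plasma cell genes *irf4a* (1.62 ± 0.40) and *irf4b* (2.06 ± 0.57) rose. Of 27 complement and scavenging genes 4 rose, including the complement component *c7a* (4.92 ± 1.28), the bridging ligand *gas6* (1.92 ± 0.37) and the iron exporter *slc40a1* (1.05 ± 0.24). Of 24 interferon-stimulated genes 2 rose, *psmb8* and *xaf1* (1.74 ± 0.33), near the 7.4% of all genes tested that rose.

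Some genes of epicardial and matrix-forming cells rose. *a-sdf1a*, the medaka feature for the chemokine Cxcl12a, which draws in cells that carry Cxcr4, was at 1.03, 0.642 and 3.103 CPM at 3 d.p.i., at 69.5 and 37.5 by 14 d.p.i. and at 3.43 to 9.90 in uninjured ventricles. Both 14 d.p.i. samples were above every other sample, and the log2 fold change from 3 d.p.i. was 5.05 ± 0.65 (adjusted p = 0.0141). The annotation holds a separate feature *cxcl12*, whose level is not given here. *mfap5*, a protein of elastic microfibrils, was at 0.259, 0.183 and 1.70 CPM at 3 d.p.i., 10.2 and 10.3 by 14 d.p.i. and 1.92 to 2.86 in uninjured ventricles, a change of 3.82 ± 0.69. *thbs2a*, a thrombospondin of healing matrix, changed by 3.29 ± 0.84, the collagen crosslinking oxidase *loxa* by 2.46 ± 0.43 and *col1a1b*, a chain of type I collagen, by 2.697 ± 0.71. *cdh11*, a cadherin of mesenchymal cells, was at 5.50, 7.98 and 9.97 CPM at 3 d.p.i. and 79.9 and 35.8 at 14 d.p.i., with 4.66 to 15.9 in uninjured ventricles. For *a-sdf1a*, *mfap5*, *thbs2a*, *col1a1b* and *cdh11* both 14 d.p.i. samples were above all uninjured ones, but none passed the test against uninjured samples (adjusted p of 0.057 to 0.276 in the same fit). The epicardial-like share at 14 d.p.i. averaged 1.79%, against 2.76% in uninjured ventricles.

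As groups, 7 of 21 epicardial and mesenchymal genes rose and 0 fell (median 1.66), and 8 of 56 matricellular and matrix assembly genes rose and 1 fell (median 0.37). Of 14 collagens 1 rose (median 1.36), near the 7.4% of all genes tested that rose. The summed level of the matricellular list went the other way from its median, from 2959, 3677 and 3891 CPM at 3 d.p.i. to 2592 and 2351 at 14 d.p.i. *tbx18*, a transcription factor of the epicardium, changed by 4.26 ± 0.98, and the prostaglandin D synthase gene *ptgdsb.1* by 4.03 ± 1.00. Proteases that cleave proteoglycans also rose, *ADAMTS5* by 2.48 ± 0.64 and *adamts1* by 1.93 ± 0.36, with the inhibitor *timp2* (0.79 ± 0.19). Epicardial-like cells went from 0.0431% to 1.79% of cells on average, and the summed level of 11 epicardial markers from 55.8 to 112 CPM at 3 d.p.i. to 208 and 238 CPM at 14 d.p.i. Their part in these changes was not tested. Among regeneration signals, 4 of 25 rose, namely the retinol carrier *rbp4* (5.47 ± 1.304), the neuregulin receptor *erbb4a* (2.52 ± 0.60), *bmp4* (2.03 ± 0.46) and the cytokine receptor *cntfr* (1.44 ± 0.34), and 2 fell, *cntfa* (-1.51 ± 0.41) and *igf2b* (-1.07 ± 0.22). *cntfa* was at 14.4, 22.3 and 13.5 CPM and then at 5.44 and 6.30, within the uninjured range of 2.42 to 6.75.

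Of the 1146 genes that rose, 123 were higher in both 14 d.p.i. samples than in all 4 uninjured ones. The share of all genes tested with that order was not computed, so the 123 are a description and not a set shown to begin at 14 d.p.i. Of the genes that rose, 10 were also past the threshold above the uninjured samples in the same fit. They had been picked for high values in the same 14 d.p.i. samples. The share of all genes tested that passed above uninjured samples is not given here, so the 10 are a description as well. *adh5* (ENSORLG00000005183), the enzyme that clears formaldehyde and S-nitrosoglutathione, was at 29.0, 30.9 and 31.1 CPM at 3 d.p.i. and 80.2 and 104 at 14 d.p.i., against 33.4 to 44.6 in uninjured ventricles. *spock1*, a secreted proteoglycan, was at 0, 0.0917 and 0.295 CPM at 3 d.p.i. and 3.12 and 1.93 at 14 d.p.i., with 0.0643 to 0.178 in uninjured ventricles. For each of these genes both 14 d.p.i. samples were above every other sample. *sncga*, a synuclein, was at 10.2, 11 and 22.6 CPM at 3 d.p.i. and 79.5 and 53.3 at 14 d.p.i., with 0.386 to 1.92 in uninjured ventricles, so it was above the uninjured range at both stages and highest at 14 d.p.i. The others included *rmdn1*, *mcmbp* and *si:ch211-156l18.7*, and 3 had an identifier only.

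In the other direction, 13 of the genes that fell were still above the uninjured samples at 14 d.p.i. by the same test. This count too is a description, without the share over all genes tested beside it. *tmed9*, a cargo receptor of early secretory vesicles, was at 132, 138 and 106 CPM at 3 d.p.i., 53.6 and 50.0 by 14 d.p.i. and 8.65 to 12.3 in uninjured ventricles. *magt1*, a subunit of the enzyme that attaches N-glycans, was at 100.1, 104 and 94.1 and 43.3 and 41.4 CPM, with 13.9 to 22.5, and the glutathione peroxidase *GPX1* was at 154, 157 and 125 and 69.7 and 62.0 CPM, with 16.9 to 29.6. The changes from 3 to 14 d.p.i. were -1.28 ± 0.22, -1.23 ± 0.23 and -1.14 ± 0.27. The presenilin *psen2*, the lysosomal phosphatase *acp2*, *dpy30*, *dennd10* and *si:dkey-222f8.3* did the same, and 5 had an identifier only. *nr4a1*, an immediate-early nuclear receptor, was the single gene that rose and was past the threshold below the uninjured samples in the same fit, at 10.5, 11.4 and 20.5 CPM at 3 d.p.i., 45.3 and 61.8 by 14 d.p.i. and 169 to 249 in uninjured ventricles.

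**Figure D3:**
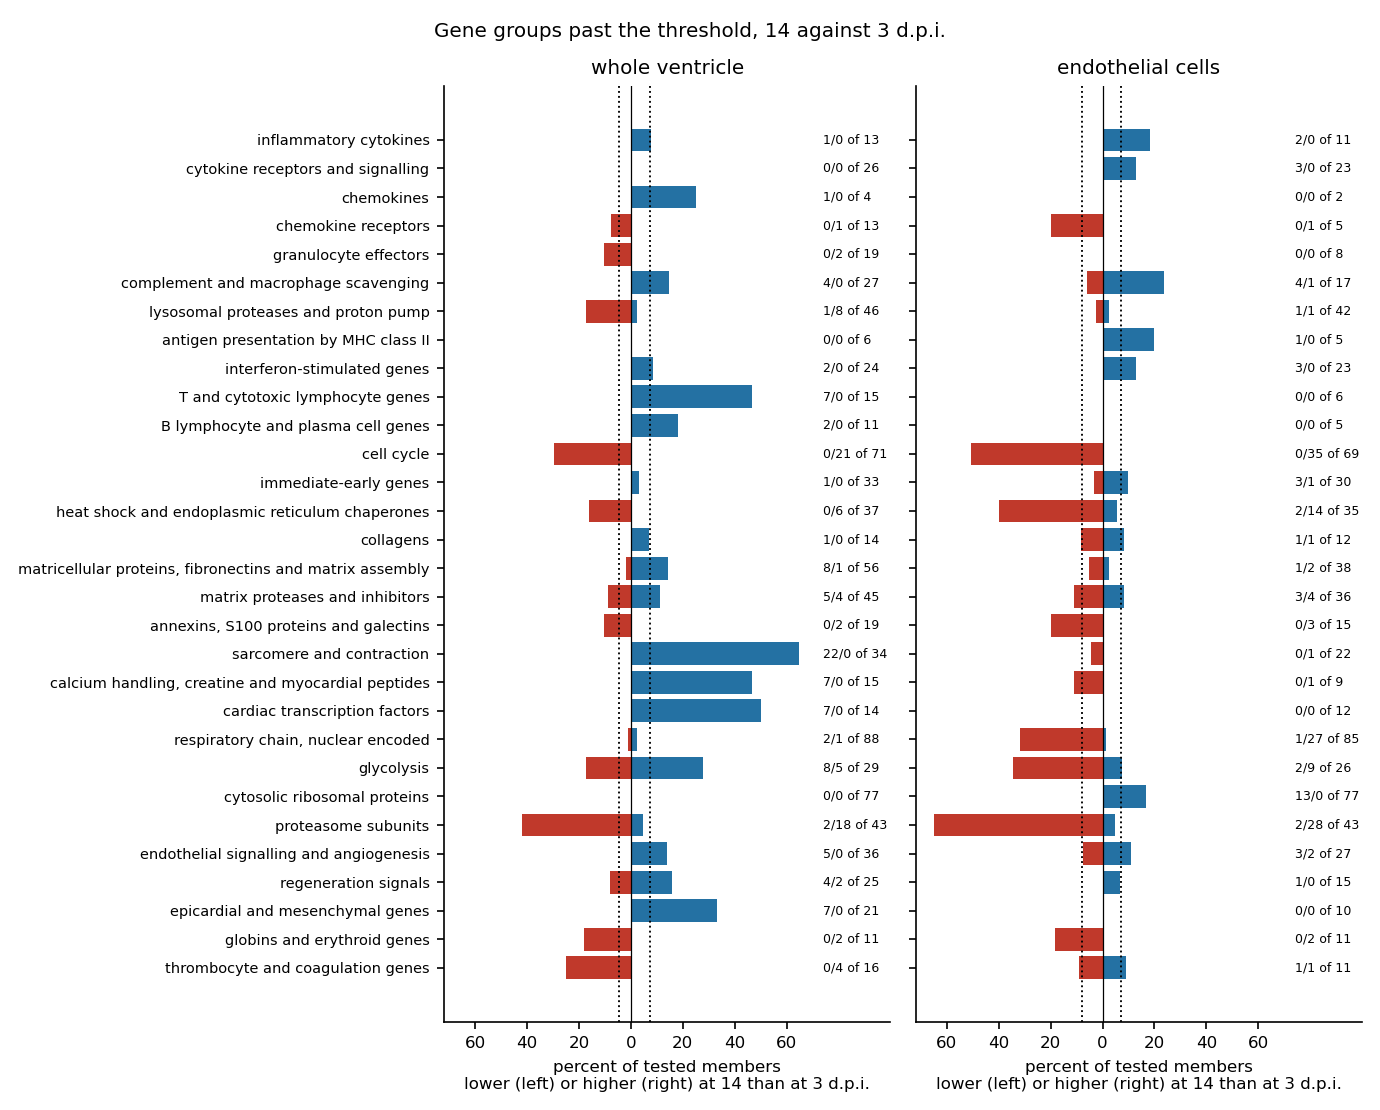
Percent of the tested members of each gene group that were lower (left) or higher (right) at 14 than at 3 d.p.i., in the whole ventricle and in endothelial-like cells, with the number called of the number tested beside each bar and dotted lines at the percent of all genes tested. Sarcomere genes stood to the right in the whole ventricle with 22 of 34 higher, and cell cycle genes to the left with 21 of 71 lower there and 35 of 69 in endothelial-like cells.

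Within endothelial-like cells, which line the chamber and vessels, many genes of division and of the proteasome fell, with fewer of the respiratory chain, and *orla-b2m* and *orla-uaa* of MHC class I rose. Of 12175 genes tested 847 rose (6.96%) and 971 fell (7.98%), with a median log2 fold change of 0.0350 over all genes. The counts came from 359, 150 and 229 cells at 3 d.p.i. and 612 and 996 at 14 d.p.i. Without 14 d.p.i. replicate 2 no gene passed in edgeR's test, while 1154 were higher and 1219 lower at an unadjusted p under 0.05, and 331 and 202 passed without replicate 1. Named globin features were 0.136% to 0.51% of endothelial UMIs at 3 d.p.i. and 0.0598% and 0.122% at 14 d.p.i., and sarcomere genes 0.0373% to 0.0881% and then 0.0325% and 0.0973%, as a measure of free RNA from other cells.

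Cell cycle genes fell. Of 69 tested in endothelial-like cells 35 fell and 0 rose, with a median log2 fold change of -2.67. *tpx2* was at 6.42, 7.13 and 12.9 CPM at 3 d.p.i. and 0.212 and 0.156 at 14 d.p.i., *cdk1*, the mitotic kinase, at 55.5, 25.2 and 64.8 and 0.849 and 2.34, and *depdc1a*, a gene of dividing cells, at 14.9, 10.99 and 14.4 and 0.849 and 0.779. No values of the stages overlapped, and uninjured cells had 1.60 to 24.7 CPM of *cdk1*. The log2 fold changes were -5.41 ± 0.87, -4.85 ± 1.07 and -4.01 ± 0.46. Of 43 proteasome subunits 28 fell and 2 rose, *psmb8* and *psmb13a*, with a median of -1.45. *psmd2* was at 191, 226 and 159.8 CPM at 3 d.p.i. and 56.5 and 33.0 at 14 d.p.i., and *psmb8* went the other way, from 23.0, 17.8 and 17 to 82.1 and 120.1.

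Some genes of the respiratory chain and of glycolysis fell in these cells. Of 85 nuclear respiratory chain genes, assembly factors included, 27 fell and 1 rose, with a median of -0.86, where the whole ventricle had 0.65. *cycsb* was at 183, 208 and 162 CPM at 3 d.p.i. and 21.4 and 16.7 at 14 d.p.i., and *cox6b1*, a subunit of cytochrome oxidase, at 164, 204 and 210.5 and 35.23 and 32.6, while uninjured endothelial cells had 0.798 to 4.40 CPM of *cox6b1*. The changes were -3.28 ± 0.62 and -2.51 ± 0.49. Of 26 glycolysis genes 9 fell, among them the glucose transporter *slc2a3b* (-3.52 ± 0.74), *gapdhs* (-1.59 ± 0.34) and *eno1a* (-1.52 ± 0.26), and 2 rose, *gapdh* and *ldhbb*. In these cells *gapdh* was at 47.2, 7.42 and 58.9 CPM at 3 d.p.i. and 98.5 and 567 at 14 d.p.i. Both genes also rose in the whole ventricle, and the part of free RNA from other cells in their endothelial levels was not tested. Of 35 heat shock and endoplasmic reticulum chaperones 14 fell, including *manf* (-2.23 ± 0.33), *hyou1* (-2.25 ± 0.49) and *hspa5*, the chaperone BiP (-2.21 ± 0.55), and 2 rose, the heat shock factor *HSF1* (1.72 ± 0.42) and the cytosolic chaperone *hsp90ab1* (0.84 ± 0.25). Their median was -0.53, while the summed level of the list was higher in both 14 d.p.i. samples (10280 and 10830 CPM) than at 3 d.p.i. (6716, 8390 and 8646), so that median and sum differed in sign.

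Some signalling and matrix genes fell in the same cells, and others rose. *vegfc*, a growth factor for lymphatic and venous endothelium, was at 10.9, 12.8 and 2.05 CPM at 3 d.p.i. and 0.637 and 0.156 at 14 d.p.i., and *pdgfba*, which recruits mural cells, at 14.3, 26.1 and 13.5 and 3.18 and 2.96. The log2 fold changes were -4.45 ± 1.000 and -2.54 ± 0.61. *mmp19*, a matrix metalloprotease, changed by -3.46 ± 0.66 and *col4a1*, a chain of basement membrane collagen, by -1.15 ± 0.34. Of the endothelial signalling genes 3 of 27 rose, the vasoconstrictor *edn1* (1.69 ± 0.45), *nrp2a* (1.503 ± 0.42) and the Notch ligand *jag1b* (1.12 ± 0.28), beside the 2 that fell. Over all genes tested in these cells 6.96% rose and 7.98% fell, so the count of signalling genes that fell was near that share.

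Among the genes that rose were 2 of MHC class I. *orla-b2m*, the light chain of MHC class I, was at 284, 369 and 346 CPM at 3 d.p.i. and 1698 and 1774 at 14 d.p.i., and *orla-uaa*, a class I heavy chain, at 220.5, 242 and 237 and 1549 and 1663. Uninjured cells had 1161 to 2141 and 544 to 1503 CPM, and the stages did not overlap. Class I heavy chains have close copies, so the level of *orla-uaa* is uncertain. The changes were 2.38 ± 0.29 and 2.79 ± 0.36, and *xaf1* (2.197 ± 0.31) and *ifih1*, a sensor of double-stranded RNA (1.14 ± 0.29), were with *psmb8* the 3 of 23 interferon-stimulated genes that rose. *cbfa2t3*, a transcriptional corepressor (2.002 ± 0.22), *kynu*, an enzyme of tryptophan breakdown (3.08 ± 0.39), and *atf7ip* (1.72 ± 0.22) completed the 5 with the smallest adjusted p. Of 77 cytosolic ribosomal proteins 13 rose and 0 fell, with a median of 0.46, but 1 rose with no filter on low counts, 4 at no more than 15% mitochondrial UMIs, and 0 to 7 with 1 injured sample left out. *rplp2*, a protein of the ribosomal stalk, was at 2865, 2656 and 3241 CPM at 3 d.p.i. and 5546 and 7095 at 14 d.p.i., above the 3220 to 3978 of uninjured cells.

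**Figure D4:**
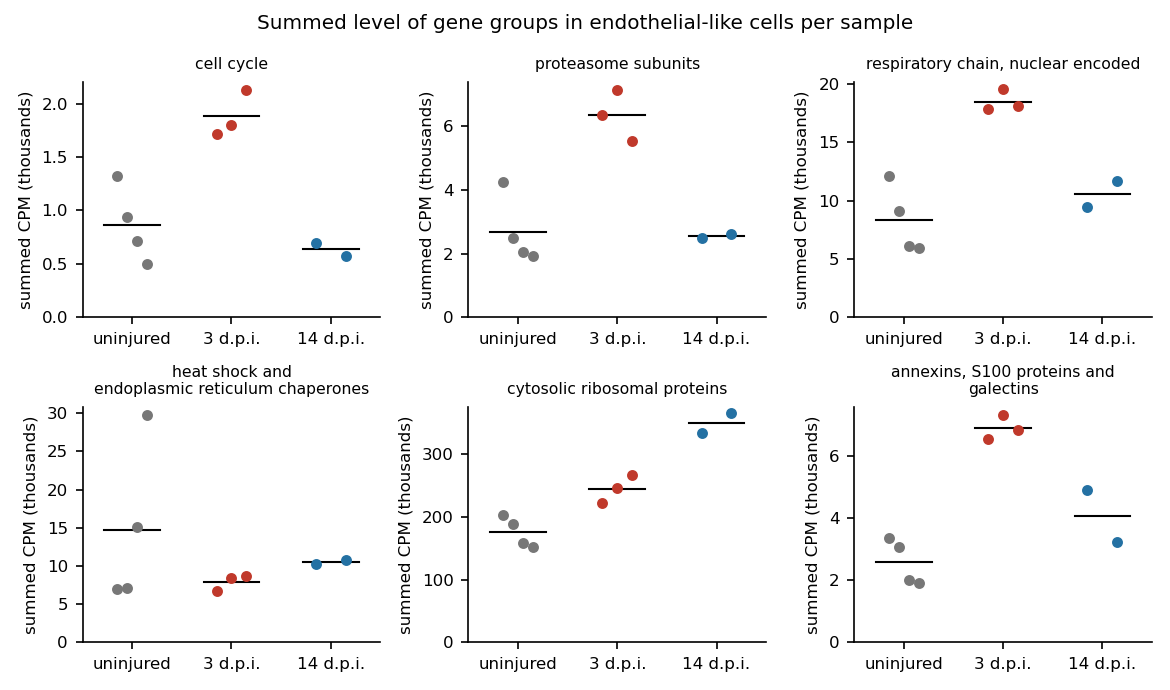
Summed TMM-scaled CPM (vertical axes, in units of 1000 CPM) of 6 gene groups in the endothelial-like cells of each uninjured, 3 d.p.i. and 14 d.p.i. sample, with a black line at the group mean. The cell cycle, proteasome, respiratory chain and annexin groups were higher in every 3 d.p.i. sample than in either 14 d.p.i. sample, and ribosomal proteins were higher in both 14 d.p.i. samples than in any other.

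The endothelial-like class was made of different clusters at the 2 stages. A single cluster held 96.1%, 94.7% and 59.0% of the class at 3 d.p.i., 27.3% and 9.7% by 14 d.p.i. and 1.9% to 3.7% in uninjured samples. Its cells had a median of 11837 to 19587 UMIs at 3 d.p.i. and 8897 and 7931 at 14 d.p.i. With its cells alone 343 of 9393 genes rose and 265 fell, and 414 of the 1818 genes called in the whole class passed again. Proteasome subunits then had 15 of 43 lower and 4 higher, the latter all immunoproteasome subunits (*psmb8*, *psmb9*, *psmb10* and *psmb13a*). Of 65 cell cycle genes 8 fell, with a median of -1.57, 10 of 82 respiratory chain genes fell, with a median of -0.66, and 43 of 76 ribosomal proteins rose, with a median of 0.73. None of 23 glycolysis genes passed, and 3 of 11 collagens rose, *col8a2*, *col6a1* and *col6a2*. *stab1*, a scavenger receptor, and *gba*, a lysosomal enzyme, rose in the whole class (1.16 ± 0.34 and 1.18 ± 0.29) and were at -0.38 and -0.21 in this cluster.

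In macrophage-like cells few genes passed. Of 9573 tested 2 rose (0.0209%) and 1 fell (0.0104%). *si:ch73-380l3.2* was at 0.352, 0.522 and 0 CPM at 3 d.p.i. and 58.0 and 49.2 at 14 d.p.i., with 4.52 to 18.0 in uninjured samples, and its log2 fold change was 7.34 ± 0.71. *c4b* (ENSORLG00000006961), a complement component, was at 46.1, 82.0 and 87.6 and 463 and 523 CPM, a change of 2.78 ± 0.37. A *c4b* feature, this or another of that name, was among the 10 leading genes of 1 cluster of this class. That cluster held 6, 0 and 1 cells at 3 d.p.i. and 74 and 15 at 14 d.p.i. Its part in the rise of *c4b* was not tested. *minpp1a*, a phosphatase of inositol phosphates, was at 64.7, 72.6 and 56.3 and 7.83 and 13.4 CPM, a change of -2.58 ± 0.34. For each of the 3 the stages did not overlap. The log2 fold changes of ribosomal proteins were above 0 in 74 of 76, with a median of 0.88, and proteasome subunits had a median of -0.70, but no member of either group passed. DESeq2 called 79 genes higher and 48 lower in the same cells.

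In cardiomyocyte-like cells no gene passed by edgeR's test (0.0% in each direction of 11154), with a smallest adjusted p of 0.0739, while 794 genes were higher and 872 lower at an unadjusted p under 0.05, and DESeq2 called 144 and 291. Sarcomere genes had a median log2 fold change of 0.15 there, against 2.03 in the whole ventricle, and proteasome subunits had -1.001. In erythroid-like cells 0.0% of 4838 genes rose, 237 at an unadjusted p under 0.05 (9 by DESeq2), and 2 fell (0.0413%). They were *GSTM4*, a glutathione transferase, at 89.3, 52.9 and 69.7 CPM at 3 d.p.i. and 6.14 and 3.63 at 14 d.p.i., and *ddit4*, an inhibitor of mTOR signalling induced by stress, at 642, 568 and 495 and 71.6 and 96.1 CPM. The changes were -3.85 ± 0.45 and -2.76 ± 0.43. The mix of erythroid-like clusters also differed. The cluster led by *GSTM4* held 877 of 1593, 824 of 2603 and 1138 of 2104 cells of the class at 3 d.p.i. At 14 d.p.i. it held 219 of 802 and 108 of 939, and its part in the fall of *GSTM4* was not tested. In B lymphocyte-like cells 2 of 2398 genes rose (0.0834%), both with an identifier only, and 2 fell (0.0834%), the chemokine receptor *cxcr5* (-4.29 ± 0.76) and *C15orf48* (-6.36 ± 1.03). That comparison rested on 19 and 36 cells of 2 samples at 3 d.p.i., and none of the 4 passed without either of them.

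Genes that the study names for medaka were mostly not past the threshold between these stages. The cytokine *tnfa* was at 26.8, 91.8 and 54.2 CPM at 3 d.p.i. and 35.24 and 20.9 at 14 d.p.i. in the whole ventricle (-1.04 ± 0.68, adjusted p = 0.327), and at 139, 513 and 236 and 252 and 184 CPM in macrophage-like cells (-0.44 ± 1.36, adjusted p = 0.936). The stages overlapped in both. The tetraspanin *cd9b* was at 351, 421 and 127 CPM and then 134 and 63.6 (-1.60 ± 0.65, adjusted p = 0.129), against 5.71 to 17.9 in uninjured ventricles. In endothelial-like cells *cd9b* was at 937, 1326 and 468 CPM at 3 d.p.i., 433 and 177 by 14 d.p.i. and 0.430 to 3.70 in uninjured samples. The study describes *cd9b* in macrophages. In macrophage-like cells it was at 55.9, 23.0 and 9.33 CPM and then 32.9 and 21.45 (-0.12 ± 0.76, adjusted p = 0.976). The stages overlapped there, and uninjured samples had 0 to 8.15 CPM. The interferon-stimulated gene *isg15* had a log2 fold change of 0.41 ± 1.01, the retinoic acid enzyme *aldh1a2* 0.04 ± 0.46, the macrophage gene *MPEG1* -0.70 ± 0.71 and *mmp19* -0.60 ± 0.66 in the whole ventricle. *col12a1a* and *col12a1b*, chains of a collagen of regenerating tissue, had 0.84 ± 0.63 and 1.55 ± 0.76. None of these 6 passed in the whole ventricle. The study describes most of them within cell types and against uninjured hearts, which is another comparison. In endothelial-like cells *aldh1a2* was at 61.9, 49.0 and 26.4 CPM at 3 d.p.i. and 34.2 and 15.4 at 14 d.p.i. The stages overlapped, with a log2 fold change of -0.90 ± 0.71 (adjusted p = 0.41 by edgeR's test). The feature *cxcr4a*, a receptor of Cxcl12, was under 2 CPM in every sample. The annotation holds a separate feature *CXCR4*, whose level is not given here, so the low *cxcr4a* level does not speak for both. Of the genes named by the study that passed, *a-sdf1a* and *cntfa* in the whole ventricle and *mmp19* in endothelial-like cells are given above.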

How the data were processed

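The 9 medaka ventricle samples were single-cell libraries, and the authors deposited unnormalized UMI counts of each feature in each barcode, made with Cell Ranger (version 5.0.0 per the file headers). Their methods name the medaka assembly ASM223467v1. Gene names are those of the deposited features, of which 8656 of 24328 carry an identifier only. Strand counting and the treatment of overlapping genes are not given in the sources used here.

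Cells with at least 200 genes and at most 40% of UMIs in the mitochondrial feature were kept. The medaka files hold a single such feature, named mt, and no symbol that starts with mt-, so a version with no mitochondrial limit was added after seeing the data. The mt feature was left out of all sums. Total UMIs per injured sample were 14132308 to 47795839, which limits the precision of low genes at 3 d.p.i. UMIs were summed per sample, or per sample and cell class with at least 10 cells, and tested with edgeR 4.0.16 in R 4.3.3 (quasi-likelihood fit, robust, TMM, default filter on low counts, 1 fit of the 9 medaka samples, two-sided, Benjamini-Hochberg adjustment over all genes tested, threshold 0.05). Log2 fold changes are given with their standard errors. Levels are TMM-scaled CPM. The fitting script was tested on simulated data.

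Cells were clustered with scanpy 1.11.5 and leidenalg 0.10.2 (counts scaled to 10000, 2000 genes, 30 dimensions, 20 neighbours, resolution 1.0, no integration) and a cluster was named from marker lists with at least 3 detected markers and a score of at least 0.3, a minimum set after seeing the data. Names are rebuilt and may differ from those of the study. Scrublet's own threshold marked at most 0.202% of the cells of a sample, so the 5% of cells with the highest score were left out as an alternative added after seeing the data, as were the fit of erythroid cells, the shares among other cells and the single endothelial cluster. Shares were compared with exact permutation tests over 10 splits. Granulocyte, T lymphocyte and epicardial classes had too few samples with 10 cells and were not tested for genes.

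Named genes are the 15 in each direction with the smallest adjusted p that carry a symbol, 5 per cell class, up to 4 per gene list and direction by fold change, and the genes that the study names for medaka. Other genes, chosen after their values were seen, are named as those past the threshold against uninjured samples, *hspa4b*, *pdia3*, *hk2*, *tbx21*, *rorc*, *gata3*, *cdh11*, further globin features and the members called in the single endothelial cluster. The members, gene lists and comparisons were chosen with earlier results of these data known. The proteasome list leaves out *psmc3ip* and *psme3ip1*, which are not subunits. Some genes that the rules would name are not reported here. Alternatives were DESeq2 1.42.0, scaling by library size, no filter on low counts, the 5 injured samples alone, a replicate block, each sample left out in turn, at least 500 genes or at most 15% mitochondrial UMIs per cell, globin features left out and erythroid, thrombocyte and unnamed cells left out.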

Additional observations from a re-analysis of the deposited data

Results flagged for a closer look

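Among the 4 uninjured samples, 5 values stood far from the other 3 by the gap to the nearest of them relative to the range, of 39 groups of 4 samples examined. Chance flags about 1 in 20 such groups. The cardiomyocyte-like share was 10.6% in the lowest uninjured sample, and the thrombocyte-like share was 10.7% in the highest. *a-sdf1a* was at 3.43 CPM in the lowest uninjured sample, and the uninjured levels were all below both 14 d.p.i. samples. The globin feature *gb* ENSORLG00000005210 was at 3.05 CPM and *mogs* at 27.4 CPM in the highest uninjured sample. The groups of 3 and 2 injured samples are too small for this rule.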

How the results depend on the processing

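Counts are given as higher and lower genes. In the whole ventricle they were 1803 and 1457 with the 5 injured samples alone, 1806 and 1465 with DESeq2, 544 and 326 at 15% mitochondrial UMIs, 626 and 85 with library size scaling, and 1039 lower without erythroid, thrombocyte and unnamed cells. Leaving out 1 sample gave 0 to 1275 higher and 0 to 845 lower. Endothelial counts were 1442 and 1729 with the 5 samples alone, 343 and 265 in the single cluster, and 0 to 546 and 0 to 598 with 1 sample left out. Macrophage counts were 46 and 11, 79 and 48 with DESeq2 and 70 and 23 unfiltered, and 1 to 3 and 0 to 1 with 1 sample left out. B lymphocyte counts were 13 and 17, 12 and 13, and 27 and 12 in the same order, 1 higher at 15% mitochondrial UMIs, and 0 to 11 and 0 to 3 with 1 sample left out. Cardiomyocyte counts were 281 and 345, 144 and 291, and 30 and 36, and 0 to 0 and 0 to 3. Erythroid counts were 2 and 7, 9 and 17, and 34 and 49, and 0 to 18 and 2 to 4. The cause of these differences was not tested.

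With a replicate block the whole ventricle had 608 higher and 358 lower genes, of which 808 were called in the fit without the block, macrophages 33 and 4, B lymphocytes 26 and 18, and cardiomyocytes 18 and 36, and 2 endothelial ribosomal proteins were higher and 1 lower. Samples that share a number deviated from their group means with correlations of -0.123 to 0.089. In groups this small the deviations are tied to one another, and those of the 2 samples at 14 d.p.i. are equal and opposite. Whether the numbers pair the samples therefore cannot be decided from them.

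The difference in the macrophage share, 2.38 points, became -14.1 with at least 500 genes per cell, -15.5 among cells other than erythroid, and -0.289 without 14 d.p.i. replicate 1. The endothelial difference became -0.923 among cells other than erythroid. With 1 sample left out the differences in points were -0.289 to 5.05 for macrophages, 6.21 to 10.3 for T and 0.653 to 7.399 for B lymphocytes, 9.44 to 27.8 for cardiomyocytes, 9.24 to 13.5 for endothelial cells, 1.43 to 2.06 for epicardial cells, -52.3 to -41.2 for erythroid cells, -3.86 to -1.42 for granulocytes and -5.24 to -2.42 for thrombocytes. The uninjured level lay nearer to 14 d.p.i. in 91.7% to 92.2% of genes that rose and 94.2% to 95.3% of those that fell with 1 uninjured sample left out. Log2 fold changes that turned were those of *casq2* (-0.33 at 15% mitochondrial UMIs), *gp9* (0.47 without erythroid, thrombocyte and unnamed cells), and *stab1* (-0.38) and *gba* (-0.21) in the single endothelial cluster. Low counts limit the classes with few cells at 3 d.p.i.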

Other observations

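Some genes were near 0 in whole libraries of a group and high in the others, and are given as values. *acmsd*, an enzyme of tryptophan breakdown, was at 0, 45.0 and 49.4 CPM at 3 d.p.i. and 0.0528 and 0 at 14 d.p.i., with 39.0 to 52.3 in uninjured ventricles, so that 1 library of 3 d.p.i. stood with those of 14 d.p.i. *GZMM*, a granzyme, was at 142, 35.3 and 15.9 CPM at 3 d.p.i. and 0.581 and 1.99 at 14 d.p.i., with 2.44 to 19.9 in uninjured ventricles, and *mnep* was at 547, 121 and 101 and 2.06 and 3.00 CPM, with 6.24 to 96.3. *aqp3a*, a channel for water and glycerol, was at 0.517, 0.0917 and 3.62 CPM at 3 d.p.i. and 46.3 and 31.7 at 14 d.p.i., with 0.428 to 9.78 in uninjured ventricles, and *pcdh8*, a protocadherin, was at 2.07, 1.47 and 0.517 and 22.0 and 53.3 CPM, with 2.71 to 14.6. These genes were picked after their values were seen. *mnep* and *GZMM* were the leading genes of the granulocyte-like cluster, which held 153, 78 and 21 cells at 3 d.p.i. and 3 and 7 at 14 d.p.i. *pcdh8* was among the 10 leading genes of a cardiomyocyte-like cluster with 88, 25 and 25 cells and then 273 and 1155. The part of these clusters in the levels was not tested.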
